A study of Mus musculus with 6 samples.

Results

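The 45 genes described here make up the amino acid program of the transcription factor ATF4. Like the lists set beside them, they were chosen by name, with earlier results of these data known. They comprise 7 regulators, 7 other stress targets, 10 enzymes of amino acid and one-carbon metabolism, 8 amino acid transporters and 13 genes of tRNA charging, of which 12 encode tRNA synthetases and 1, Xpot, a tRNA exporter. Their probes were found through the transcript accession of each spot, which gave 44 of the 45 genes and 55 probes, out of 20660 genes and 27235 probes that matched a gene in the whole array. Pycr1 had no matching probe and is not analysed here. All 44 genes passed the filter on low signal, although Fgf21 and Slc7a11 passed it through their adult basal signal alone, and 42 genes were well above background on all 6 arrays.

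RNA came from 3 biological replicates of E18.5 fetal mammary cells, with the sort gate CD31-CD45-Ter119-EpCAM++CD49f+, and 3 of adult basal mammary cells from 8–12-wk mice, for which the gate CD31-CD45-Ter119-BP-1-EpCAM+CD49f+ was used. All animals were female C57Bl6J mice without any further allele or treatment given in the labels, and each replicate was hybridized to 1 one-color Agilent array. Adult glands were digested overnight in collagenase and hyaluronidase and fetal glands only briefly, so that age, sort gate and length of digestion cannot be told apart in any difference given here. The study compared these populations because they differ in the regenerative activity they show in culture and after transplantation. In bulk RNA of sorted cells, fewer cells that use a gene and less of its RNA in each cell also cannot be told apart.

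ATF4 is made when translation initiation factor eIF2 is phosphorylated by a stress kinase, such as GCN2 on amino acid shortage or PERK on misfolding of proteins in the endoplasmic reticulum. General translation then slows, while the Atf4 mRNA escapes an upstream reading frame and is translated. ATF4 binds, often with a C/EBP partner, to composite elements called C/EBP-ATF response elements (CAREs), and its targets import amino acids, make asparagine, serine and glycine, charge tRNAs, and include the factors CHOP, TRIB3 and GADD34 that shape how the response ends. Because its main control is on translation, the level of Atf4 mRNA and the level of ATF4 protein need not move together, and protein was not measured here.

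Values are log2 of the quantile-normalized signal of a gene's brightest probe, and each difference is fetal minus adult basal, so that a negative value means a higher signal in adult basal cells. Calls were made with limma, and needed both a difference of 1 log2 unit or more in either direction and a p that stayed at or under 0.05 after Holm adjustment. By this rule 21 of the 44 genes were called higher in adult basal cells, where 5.21% of all 15734 genes tested were called in that direction, and 0 were called higher in fetal cells, where the share over all genes was 6.03%. The 21 include Fgf21 and Slc7a11, which were above background on 0 and 1 of the fetal arrays and passed the filter through adult basal signal alone, and 19 of them were well above background on all 6 arrays. With Benjamini-Hochberg adjustment in place of Holm, limma called 32 genes higher in adult basal cells and 1, Cbs, higher in fetal cells, against 13.9% and 15.8% of all genes. With no limit on size, 41 had an adjusted p of at most 0.05 by Benjamini-Hochberg and were higher in adult basal cells, where 30% of all genes did, and 2 (Psat1 and Cbs) did and were higher in fetal cells, where 30.2% did. The same 41 and 2 had an unadjusted p of at most 0.05, against 32% and 31.8% of all genes, and Phgdh passed in neither direction.

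The 3 adult basal arrays all exceeded the 3 fetal arrays for 41 of the 44 genes, as they did for 35% of all genes tested, and the reverse held for 2 genes, as it did for 33.4% of all genes. The median difference over the program was -1.70, beside -0.04 over all genes. Single genes ranged from a fitted -9.79 for Fgf21 to 1.04 for Cbs. Within the first slide, which held adult basal replicates 1 and 3 and fetal replicate 1, the median was -1.76, and within the second slide, which held the other three arrays, it was -1.70. The number of called genes was lower when a fetal array was left out, with 11 called without fetal replicate 1, 11 without fetal replicate 2 and 12 without fetal replicate 3. It was 17, 19 and 14 without adult basal replicates 1, 2 and 3, 16 with slide as a block and 14 without the filter on low signal. No difference of any of the 44 genes changed sign under the alternatives that can move it, such as another normalization or an array left out.

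**Figure D1:**
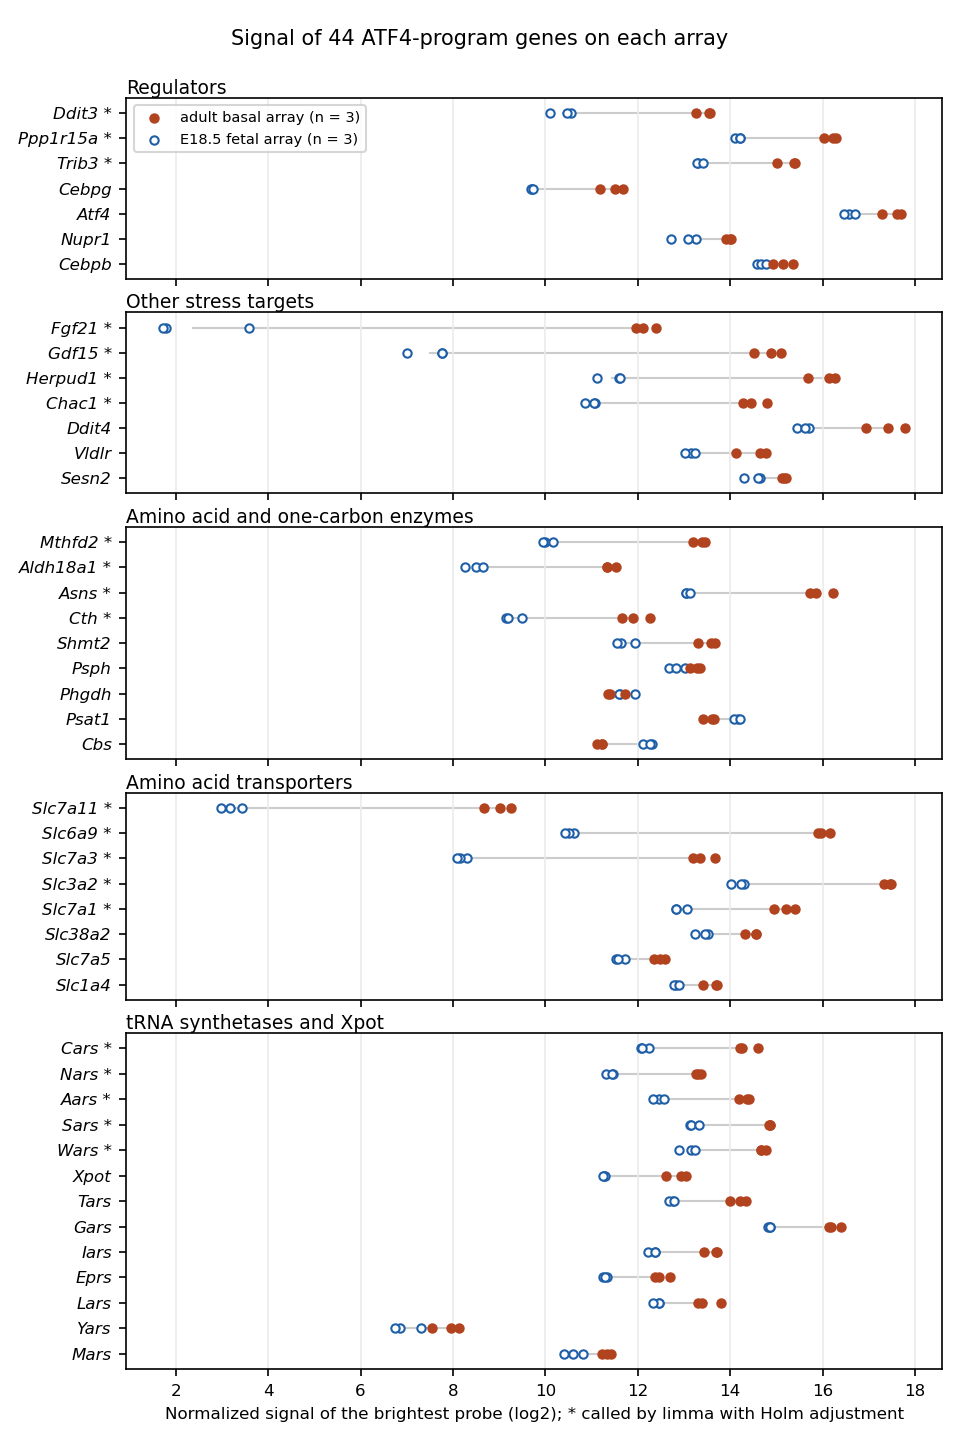
Normalized log2 signal of the brightest probe of 44 genes (rows, grouped by role and ordered by difference) on the 3 adult basal arrays (filled points) and the 3 fetal arrays (open points), with a grey line between the group means and an asterisk at the 21 genes called by limma with Holm adjustment. Adult basal points lie to the right of all fetal points for 41 genes, Cbs and Psat1 lie the other way round, and the points of Phgdh overlap.

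The letters of a CARE core were found in the promoters of 15 of the 38 genes with a promoter window. Windows of 250 bases before to 50 bases after the annotated start site came from RefSeq (GRCm38.p6), and both strands were searched for TGATGNAA, which reads TTNCATCA on the other strand. The core was present in 3.13% of the 12503 tested genes with a window and in 3.97% of all 32851 windows. No other motif was searched. The runs below come from 6 of the 7 genes that both held the core and were called by Holm, each written along the strand of its gene and with the core in capitals.
Trib3 (chr2:152344028-152344057, minus strand): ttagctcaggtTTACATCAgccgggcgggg
Chac1 (chr2:119351038-119351067, plus strand): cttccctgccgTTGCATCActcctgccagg
Fgf21 (chr7:45615611-45615640, minus strand): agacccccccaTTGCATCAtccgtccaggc
Herpud1 (chr8:94386306-94386335, plus strand): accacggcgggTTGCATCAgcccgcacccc
Asns (chr6:7693214-7693243, minus strand): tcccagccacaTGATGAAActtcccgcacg
Slc7a11 (chr3:50443651-50443680, minus strand): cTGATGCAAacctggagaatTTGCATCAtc

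The core stood in either orientation and at varied distances from the start site, taken as position 0. Its first base lay at -193 in Chac1, at -139 in Fgf21, at -112 in Herpud1, at -23 in Asns and at 14, inside the transcript, in Trib3. Slc7a11 held the core in both orientations within 1 run, at -66 and -47. The other genes with a match were Aars, Nupr1, Vldlr, Slc1a4, Gars, Iars, Yars, Tars and the unmeasured Pycr1. Among the 14 measured genes with the core the median difference was -1.65, with 7 called, and among the 23 with a window and no match it was also -1.65, with 9 called. A match describes these letters only, and a window without one does not show that ATF4 acts elsewhere or not at all. Cth, Slc7a5, Slc7a3, Wars, Nars, Cars and Lars had no window in the table used.

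**Figure D2:**
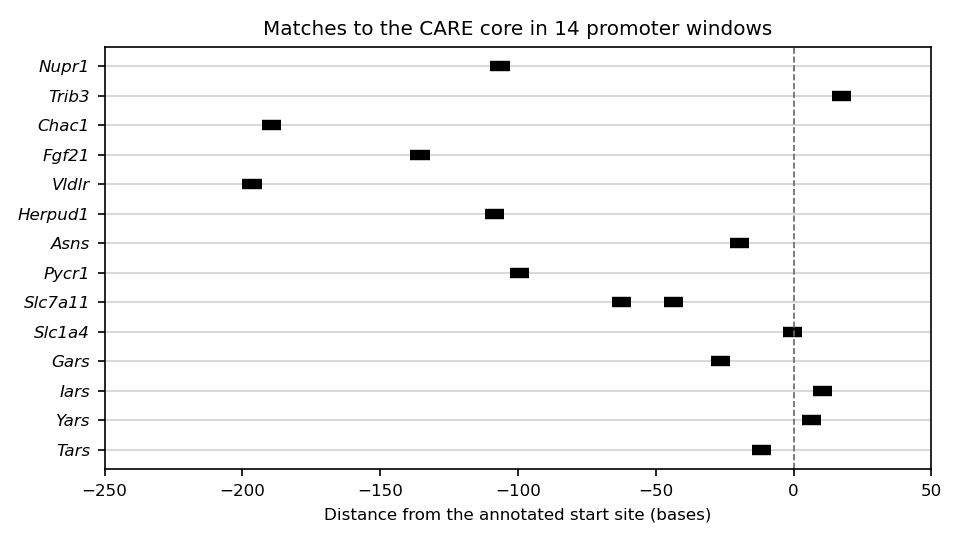
Position of each match to the CARE core (black bars, 8 bases long) in the promoter windows of 14 of the 15 genes that held it, in bases from the annotated start site (dashed line). The matches shown lie between -200 in Vldlr and 14 in Trib3.

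Among the 7 regulators, all had their adult basal arrays above their fetal arrays, 3 (Ddit3, Trib3 and Ppp1r15a) were called by Holm, and the median difference was -1.75. Atf4 itself, the activator of the program, gave log2 signals of 17.28, 17.70 and 17.62 in adult basal cells and 16.56, 16.71 and 16.46 in fetal cells. The groups did not overlap, and the difference of -0.96 (SE 0.14), a 1.94-fold higher signal in adult basal cells, had an adjusted p of 0.000752 by Benjamini-Hochberg in limma but was under the 1 log2 unit required and did not pass Holm. The dimmer of its 2 probes gave a difference of -1.09 (SE 0.19), which also did not pass Holm but was called by Benjamini-Hochberg, since it was over 1 log2 unit.

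Ddit3 encodes CHOP, a C/EBP-family factor that ATF4 induces and that promotes cell death under lasting stress. Its signals were 13.27, 13.57 and 13.54 in adult basal cells and 10.10, 10.55 and 10.47 in fetal cells, so that the groups stood far apart. The difference was -3.08 (SE 0.15), or 8.48-fold (Holm-adjusted p = 0.00268, limma), and the call was kept under all alternatives. Trib3, a pseudokinase that ATF4 and CHOP induce and that dampens ATF4, had signals of 15.01, 15.40 and 15.39 in adult basal cells and 13.31, 13.27 and 13.42 in fetal cells, without overlap. It was 3.83-fold higher in adult basal cells, with a difference of -1.94 (SE 0.13) and a Holm-adjusted p of 0.0277. Ppp1r15a encodes GADD34, the phosphatase subunit that returns eIF2 to its active form. Its signals were 16.03, 16.28 and 16.22 in adult basal cells and 14.11, 14.21 and 14.21 in fetal cells, again without overlap, and the difference was -2.0 (SE 0.11), or 4.01-fold (Holm-adjusted p = 0.00489).

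The call of Trib3 was lost without adult basal replicate 2 or 3 or any 1 of the fetal replicates, where its difference stayed between -1.96 and -1.87 and the Holm-adjusted p reached 0.45. With slide as a block its difference was -1.98 (Holm-adjusted p = 0.11), so that the call was lost there too. That of Ppp1r15a was lost without adult basal replicate 3 or any 1 of the fetal replicates, with differences from -2.02 to -1.96 and an adjusted p of up to 0.105. Cebpg, a dimer partner of ATF4, was the uncalled regulator with the largest difference. It had signals of 11.18, 11.51 and 11.68 in adult basal cells and 9.72, 9.68 and 9.72 in fetal cells, a gap wider than the spread within either group. Its difference was -1.75 (SE 0.14) and its Holm-adjusted p was 0.0726. Nupr1, a small stress-induced chromatin protein, differed by -0.95 (SE 0.15), and Cebpb, another C/EBP partner of ATF4, by -0.46 (SE 0.14), the smallest difference among the regulators, and neither was called.

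The 7 other stress targets held the largest differences of the program, with 4 called, a median difference of -3.51, and adult basal arrays above fetal arrays in all 7. Fgf21, a secreted hormone of the starvation response, was at 12.12, 12.40 and 11.97 in adult basal cells, whereas none of the fetal arrays had it well above background. A bound was set by the dimmest signal well above background on each fetal array. Against it, the adult basal signal was 335-fold higher (8.39 log2 units). That floor is the lowest signal of any probe well above background, so the bound is not a strict minimum. The fitted difference was -9.79, or -6.10 after normexp and -7.71 when 16 was added to every signal before log2. Both of these alternatives gave a smaller size than the bound. The fit gave a Holm-adjusted p of 0.00217 (0.0576 with a trend and robust estimation in eBayes, the only alternative that ended its call), and this p sets adult basal signal against background. Gdf15, a secreted stress hormone that acts on feeding centers of the brain, was at 14.52, 15.10 and 14.89 in adult basal cells and 7.0, 7.76 and 7.75 in fetal cells. It was 161-fold higher in adult basal cells (difference -7.33, SE 0.25, Holm-adjusted p = 0.000172), the largest difference of a gene measured above background on all 6 arrays in the program.

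Herpud1, a membrane protein of the endoplasmic reticulum that takes part in the disposal of misfolded proteins, had signals of 15.69, 16.28 and 16.13 in adult basal cells and 11.12, 11.60 and 11.61 in fetal cells. The difference was -4.59 (SE 0.20), or 24.1-fold (Holm-adjusted p = 0.00107). Chac1, which degrades glutathione, was at 14.45, 14.79 and 14.27 in adult basal cells and 11.08, 11.06 and 10.86 in fetal cells, and differed by -3.51 (SE 0.15), or 11.4-fold (Holm-adjusted p = 0.00111). In both genes the lowest adult basal array lay over 3 log2 units above the highest fetal array, and together with Gdf15 they kept their calls under all alternatives. Ddit4, an inhibitor of mTORC1 signaling that also answers to hypoxia and glucocorticoid, was the uncalled target with the largest difference. Its adult basal signals, 17.42, 16.94 and 17.78, were spread more widely than the fetal ones, 15.71, 15.45 and 15.63, but did not overlap them, and the difference of -1.78 (SE 0.21) had a Holm-adjusted p of 0.855. Vldlr, a lipoprotein receptor, differed by -1.38 (SE 0.18), and Sesn2, a leucine sensor that inhibits mTORC1, by -0.65 (SE 0.12), and neither was called.

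The enzymes were divided. Of the 9 measured, 4 (Mthfd2, Aldh18a1, Asns and Cth) were called higher in adult basal cells and the median difference was -1.81, but Phgdh, Psat1 and Cbs had positive differences, the only 3 in the program. Asns, which makes asparagine from aspartate and glutamine, was at 15.72, 16.23 and 15.87 in adult basal cells and 13.04, 13.04 and 13.14 in fetal cells. The groups lay over 2 log2 units apart, with a difference of -2.87 (SE 0.15), or 7.3-fold (Holm-adjusted p = 0.00326), although the adjusted p was 0.0739 without fetal replicate 1 and 0.0635 without fetal replicate 2, at a difference of -2.85 in both cases.

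Mthfd2, the mitochondrial enzyme that oxidizes one-carbon units on folate, was at 13.19, 13.44 and 13.39 in adult basal cells and 9.99, 9.94 and 10.17 in fetal cells. Its difference of -3.31 (SE 0.12), or 9.91-fold, had a Holm-adjusted p of 0.000254 and was the largest among the enzymes. Shmt2, which feeds that step by turning serine into glycine in mitochondria, was the uncalled enzyme with the largest difference. Its signals were 13.30, 13.60 and 13.66 in adult basal cells and 11.64, 11.54 and 11.93 in fetal cells, without overlap, and its difference was -1.81 (SE 0.15, Holm-adjusted p = 0.0882). Aldh18a1 makes the precursor of proline and ornithine from glutamate. It was at 11.34, 11.33 and 11.52 in adult basal cells and 8.25, 8.50 and 8.66 in fetal cells and differed by -2.93 (SE 0.13), or 7.6-fold (Holm-adjusted p = 0.00148). The calls of Mthfd2 and Aldh18a1 were kept under all alternatives.

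The enzymes of transsulfuration, which carry sulfur from homocysteine to cysteine, moved in opposite directions by Benjamini-Hochberg adjustment. Cth, the second enzyme of that route, was at 11.90, 12.27 and 11.66 in adult basal cells and 9.15, 9.19 and 9.50 in fetal cells and differed by -2.66 (SE 0.18), or 6.32-fold (Holm-adjusted p = 0.0216). Its other probe gave -2.72 (SE 0.13) and was also called. On the brightest probe the call was lost without adult basal replicate 1 or any 1 of the fetal replicates, at differences from -2.76 to -2.61 and a Holm-adjusted p of up to 0.328. Cbs, the first enzyme of the route, was at 11.23, 11.11 and 11.23 in adult basal cells and 12.30, 12.12 and 12.26 in fetal cells. Every fetal array lay above every adult basal array, and the signal was 2.05-fold higher in fetal cells, with a difference of 1.04 (SE 0.10, adjusted p = 9.18e-05 by Benjamini-Hochberg, 0.273 by Holm).

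The 3 enzymes that make serine from a glycolytic intermediate, Phgdh, Psat1 and Psph, gave small differences. None was called by Holm or by Benjamini-Hochberg with the limit on size, 1 in each direction had an unadjusted p of at most 0.05, and their median difference was 0.22. Phgdh, the first enzyme of the route, was at 11.72, 11.36 and 11.40 in adult basal cells and 11.62, 11.59 and 11.94 in fetal cells, and the groups overlapped. Its difference was 0.22 (SE 0.15), between 0.11 and 0.33 with 1 array left out in turn, with an adjusted p of 0.231 by Benjamini-Hochberg. Psat1, the aminotransferase of the second step, was at 13.61, 13.65 and 13.40 in adult basal cells and 14.16, 14.08 and 14.21 in fetal cells without overlap, and its signal was 1.51-fold higher in fetal cells (difference 0.60, SE 0.11, adjusted p = 0.00225 by Benjamini-Hochberg). Its other probe did not share this gap, with overlapping groups and a difference of 0.14 (SE 0.15) at an adjusted p of 0.442. Psph, the phosphatase of the last step, was lower in fetal cells by its brightest probe, with a difference of -0.42 (SE 0.13) and an adjusted p of 0.0217 by Benjamini-Hochberg, and by its other probe, with -0.71 (SE 0.14).

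**Figure D3:**
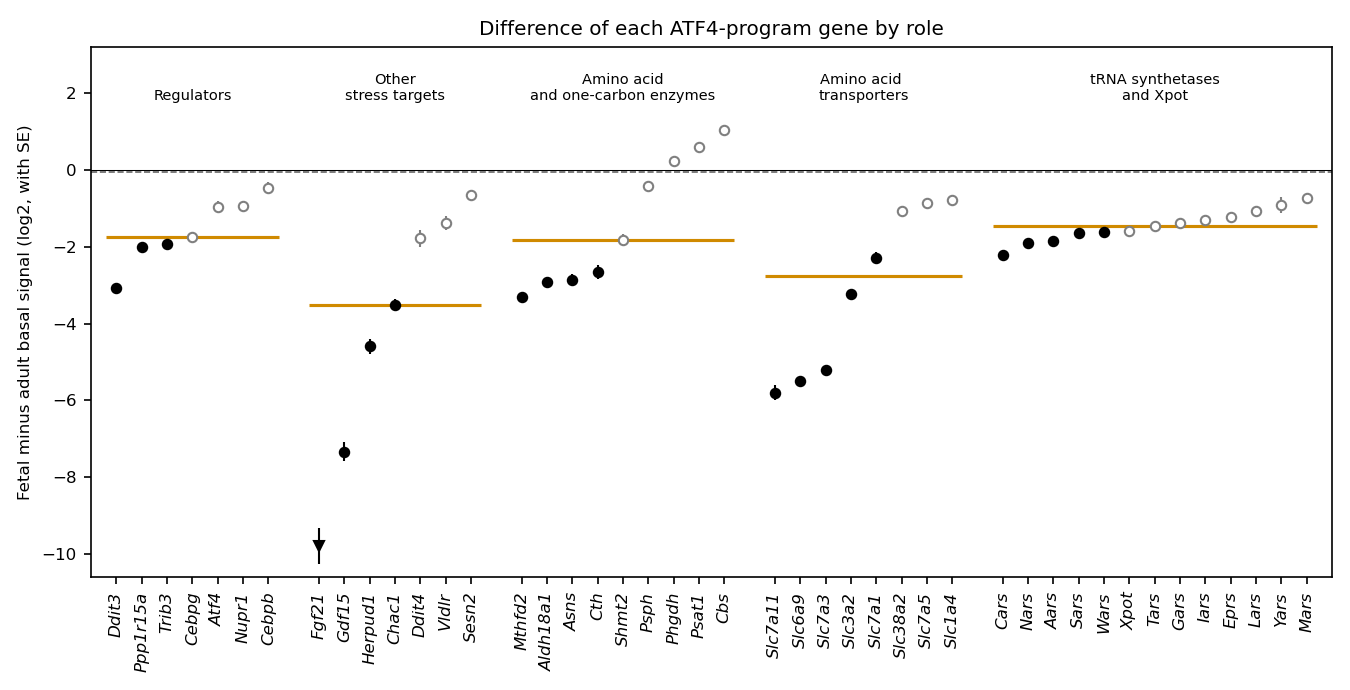
Fetal minus adult basal log2 signal of 44 genes by role, with standard errors from limma (n = 3 arrays in each group). Filled symbols are called with Holm adjustment, orange lines are the median of a role, the dashed line is the median of all genes tested (-0.04), and the triangle marks Fgf21, whose fetal signal was not well above background, so that its point is a fitted value and not a bound. The largest differences are those of stress targets and transporters, and the only positive ones are those of Phgdh, Psat1 and Cbs.

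All 8 transporters were higher on every adult basal array than on any fetal array, 5 were called by Holm, and the median difference was -2.76. Slc7a11 encodes xCT, which brings in cystine in exchange for glutamate. It was at 8.67, 9.01 and 9.27 in adult basal cells and 3.42, 3.17 and 2.98 in fetal cells, where only 1 of 3 arrays was well above background. The fitted difference was -5.79 (SE 0.18, Holm-adjusted p = 0.000118), set mostly against background, so that no fold is given and the p and the call are no test between measured levels, and its size depended on the background correction, with -3.11 under normexp and -4.37 with an offset of 16 before log2. Slc3a2, the heavy chain that xCT and the light chain encoded by Slc7a5 both need at the cell surface, was at 17.33, 17.48 and 17.45 in adult basal cells and 14.29, 14.01 and 14.24 in fetal cells. It differed by -3.24 (SE 0.12), or 9.43-fold (Holm-adjusted p = 0.000271).

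Slc6a9, a glycine transporter, had the lowest adjusted p of the program. Its signals were 15.90, 15.97 and 16.15 in adult basal cells and 10.61, 10.51 and 10.41 in fetal cells, with a difference of -5.50 (SE 0.11), or 45.1-fold (Holm-adjusted p = 5.34e-06), and its other probe gave -5.64 (SE 0.11). Slc7a3 and Slc7a1 both carry arginine, lysine and ornithine. Slc7a3 was at 13.19, 13.67 and 13.34 in adult basal cells and 8.31, 8.16 and 8.09 in fetal cells and differed by -5.22 (SE 0.15), or 37.2-fold (Holm-adjusted p = 5.09e-05). Slc7a1 was at 14.95, 15.40 and 15.21 in adult basal cells and 13.06, 12.83 and 12.82 in fetal cells and differed by -2.28 (SE 0.15), or 4.87-fold (Holm-adjusted p = 0.0151). The groups did not overlap for either carrier. The calls of Slc3a2, Slc6a9 and Slc7a3 were kept under all alternatives, whereas that of Slc7a1 was lost without adult basal replicate 3 or any 1 of the fetal replicates, with differences from -2.37 to -2.23 and a Holm-adjusted p of up to 0.23, and with slide as a block, at -2.30 (Holm-adjusted p = 0.0898).

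The remaining transporters were not called on their brightest probe. Slc38a2, a sodium-coupled carrier of small neutral amino acids such as glutamine and alanine, was at 14.33, 14.55 and 14.56 in adult basal cells and 13.53, 13.46 and 13.23 in fetal cells. It had the largest difference of the uncalled transporters, -1.07 (SE 0.13), with no overlap between the groups and a Holm-adjusted p of 0.798. Slc1a4, a carrier of alanine, serine and cysteine, differed by -0.77 (SE 0.12). Slc7a5 encodes LAT1, which exchanges large neutral amino acids such as leucine, and its 2 probes gave different calls. The brighter one was at 12.35, 12.58 and 12.48 in adult basal cells and 11.73, 11.53 and 11.58 in fetal cells and differed by -0.86 (SE 0.11), without a call. The other was at 12.61, 13.34 and 13.17 in adult basal cells and 9.78, 9.78 and 9.98 in fetal cells and was called, with a difference of -3.19 (SE 0.19), or 9.15-fold (Holm-adjusted p = 0.0102). Both probes were higher on every adult basal array, so they shared the direction and disagreed on the size.

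**Figure D4:**
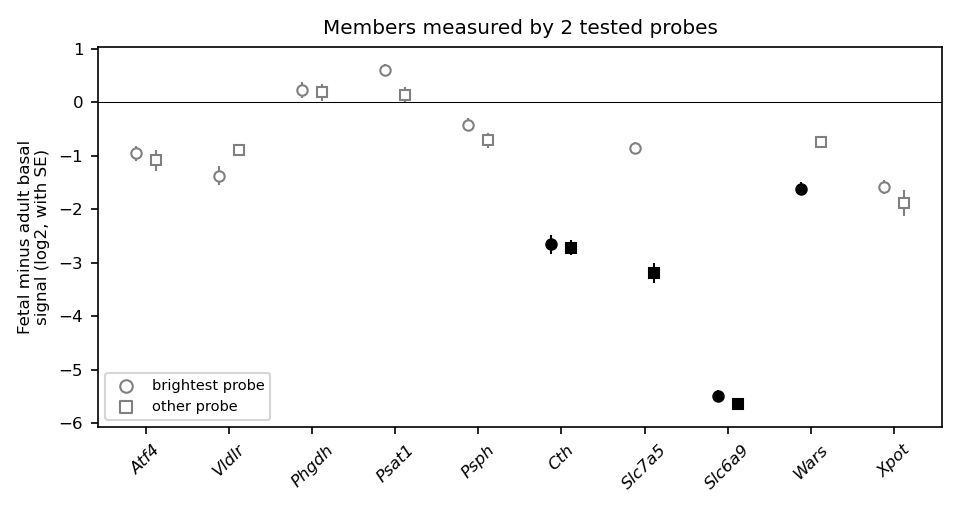
Fetal minus adult basal log2 signal of the 10 genes with 2 tested probes, with standard errors from limma (n = 3 arrays in each group): circles are the brightest probe, squares the other one, and filled symbols are called with Holm adjustment. Both probes of every gene lie on the same side of 0, and only Slc7a5 and Wars have 1 called and 1 uncalled probe.

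The tRNA charging genes gave differences within a narrow range. All 13 had adult basal arrays above fetal arrays, their differences ran from -2.22 to -0.72 with a median of -1.45, and 5 (Cars, Nars, Aars, Sars and Wars) were called by Holm and 11 by Benjamini-Hochberg. Each synthetase joins its amino acid to the matching tRNA. Cars, for cysteine, was at 14.21, 14.60 and 14.27 in adult basal cells and 12.07, 12.25 and 12.09 in fetal cells and differed by -2.22 (SE 0.13), or 4.66-fold (Holm-adjusted p = 0.0104). Nars, for asparagine, was at 13.36, 13.31 and 13.26 in adult basal cells and 11.46, 11.31 and 11.44 in fetal cells and differed by -1.90 (SE 0.10), or 3.74-fold (Holm-adjusted p = 0.00365). In both, the gap between the groups was several times the spread within them.

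Aars, for alanine, was at 14.19, 14.41 and 14.37 in adult basal cells and 12.47, 12.34 and 12.57 in fetal cells, and differed by -1.86 (SE 0.11), or 3.63-fold (Holm-adjusted p = 0.0114). A dimmer Aars probe fell below the filter on low signal and was not tested. Sars, for serine, had the tightest adult basal values of the called synthetases, 14.84, 14.87 and 14.85, with 13.14, 13.16 and 13.32 in fetal cells, and differed by -1.65 (SE 0.10), or 3.13-fold (Holm-adjusted p = 0.00989). Wars, for tryptophan, was at 14.78, 14.68 and 14.67 in adult basal cells and 12.89, 13.15 and 13.24 in fetal cells, with a difference of -1.62 (SE 0.12, Holm-adjusted p = 0.0437). Wars is also induced by interferon, and its other probe, with a difference of -0.74 (SE 0.10), was not called.

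None of these 5 calls was kept under all alternatives. Without fetal replicate 1, 2 or 3 all 5 were lost, at differences of -2.28 to -2.19 for Cars, -1.94 to -1.86 for Nars, -1.91 to -1.80 for Aars, -1.69 to -1.61 for Sars and -1.68 to -1.52 for Wars. Without adult basal replicate 1 or 3 the calls of Cars, Aars, Sars and Wars were also lost, at differences between -2.30 and -1.59, and without adult basal replicate 2 that of Wars, whose Holm-adjusted p was between 0.166 and 0.502 over the 6 arrays left out in turn. With slide as a block the calls of Aars, Sars and Wars were lost, at differences of -1.88, -1.67 and -1.66 and Holm-adjusted p of 0.0688, 0.062 and 0.148. The uncalled gene with the largest difference was Xpot, which carries mature tRNAs out of the nucleus. It was at 12.60, 13.03 and 12.94 in adult basal cells and 11.26, 11.29 and 11.25 in fetal cells without overlap, and differed by -1.59 (SE 0.13, Holm-adjusted p = 0.0892). The other synthetases were Tars for threonine (-1.45), Gars for glycine (-1.39), Iars for isoleucine (-1.29), Eprs for glutamate and proline (-1.22), Lars for leucine (-1.08), Yars for tyrosine (-0.91) and Mars for methionine (-0.72), each given as its log2 difference.

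Synthetases outside the program can be set beside these. Of the 8 other cytosolic synthetase genes on the list, 0 were called in either direction by Holm, and by Benjamini-Hochberg limma called 1, Hars, higher in fetal cells. At an unadjusted p of at most 0.05, 1 was higher in adult basal cells and 3 in fetal cells, and the median difference over the list was 0.29. Only Rars, for arginine, had all adult basal arrays above the fetal arrays, and it had the lowest difference, -0.83 (SE 0.11), whereas Hars, for histidine, had the highest, 1.21 (SE 0.39). The value for Hars rested in part on adult basal replicate 2, without which the group means differed by 0.73. Of the 16 mitochondrial synthetase genes tested, 0 were called higher in adult basal cells by Holm (2 at an unadjusted p of at most 0.05), and the median difference over them was 0.59.

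Further targets of ATF4 that were not among the 45 genes were mostly higher in adult basal cells. They too were chosen with earlier results of these data known, so they are no independent support for the program. Of 15, limma with Holm adjustment called 10 in that direction and 0 in the other (1 at an unadjusted p of at most 0.05), with a median difference of -3.00. The lowest was Bcat1, the cytosolic aminotransferase of branched-chain amino acids, at -5.91 (SE 0.21, Holm-adjusted p = 0.000231). The highest was Atf3, a stress-induced factor that is also an immediate early gene, at 1.27 (SE 0.17), higher in fetal cells by Benjamini-Hochberg (adjusted p = 0.000463) and not by Holm. Of 13 other amino acid carriers tested, 5 were called higher in adult basal cells, with Slc7a8 the lowest at -4.28 (SE 0.11), and 1, Slc38a4, was called higher in fetal cells. Slc38a4 was well above background on only 1 adult basal array and passed the filter on low signal through its fetal signal alone. Its fitted difference of 4.46 (SE 0.22) was therefore set mostly against background, and its call is no test between measured levels.

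Genes that act upstream of ATF4 gave mostly small differences at the RNA level. Of the 15 genes for the eIF2 kinases, their regulators, eIF2, its exchange factor eIF2B and the constitutive phosphatase subunit, 0 were called in either direction by Holm or by Benjamini-Hochberg with the limit on size. At an unadjusted p of at most 0.05, limma gave 5 higher in adult basal cells and 3 in fetal cells, and the median difference was 0.03. Eif2ak3, which encodes PERK, was the lowest at -0.86 (SE 0.17), and Eif2b1, a subunit of eIF2B, was the highest at 1.66 (SE 0.66). The value for Eif2b1 rested on adult basal replicate 2, which was at 8.17 where the other adult basal arrays were at 10.90 and 10.63. These arrays do not measure phosphorylation, so the activity of the kinases was not measured.

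Genes of other stress programs were measured as well. The 12 genes of endoplasmic reticulum chaperones and the other arms of the unfolded protein response had a median difference of -2.88, with 11 called higher in adult basal cells, from -3.65 (SE 0.11) for Sdf2l1 to -1.70 (SE 0.15) for Xbp1, the only 1 not called. Of 8 targets of the oxidative stress factor NRF2, 3 were called higher in adult basal cells, with Hmox1 the lowest at -5.99 (SE 0.29) and Gsr the highest at 1.22 (SE 0.18). Of 9 p53 targets tested, 3 were called higher in adult basal cells, with Phlda3 the lowest at -2.76 (SE 0.13) and Sesn1 the highest at 0.50 (SE 0.14).

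Immediate early genes, which cell isolation is known to induce, ran the other way. Of 13, 4 (Fosb, Klf6, Nr4a1 and Btg2) were called higher in fetal cells and 0 in adult basal cells (1 at an unadjusted p of at most 0.05), with a median difference of 1.88, from -1.0 (SE 0.18) for Ier3 to 3.50 (SE 0.24) for Nr4a1. Cytosolic heat shock genes had 0 of 7 called in either direction by Holm or by Benjamini-Hochberg with the limit on size, 1 higher in adult basal and 5 in fetal cells at an unadjusted p of at most 0.05, a median of 0.67, and a range from -0.61 (SE 0.13) for Hspb1 to 0.97 (SE 0.35) for Hspa1a. All 10 proliferation genes were called higher in fetal cells, with a median of 5.69, from 1.92 (SE 0.11) for Pcna to 6.92 (SE 0.52) for Bub1, well above background on 2 of 3 adult basal arrays. The part that the endoplasmic reticulum response or cell division had in the differences of the ATF4 program was not tested, and that of digestion cannot be told apart from age.

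**Figure D5:**
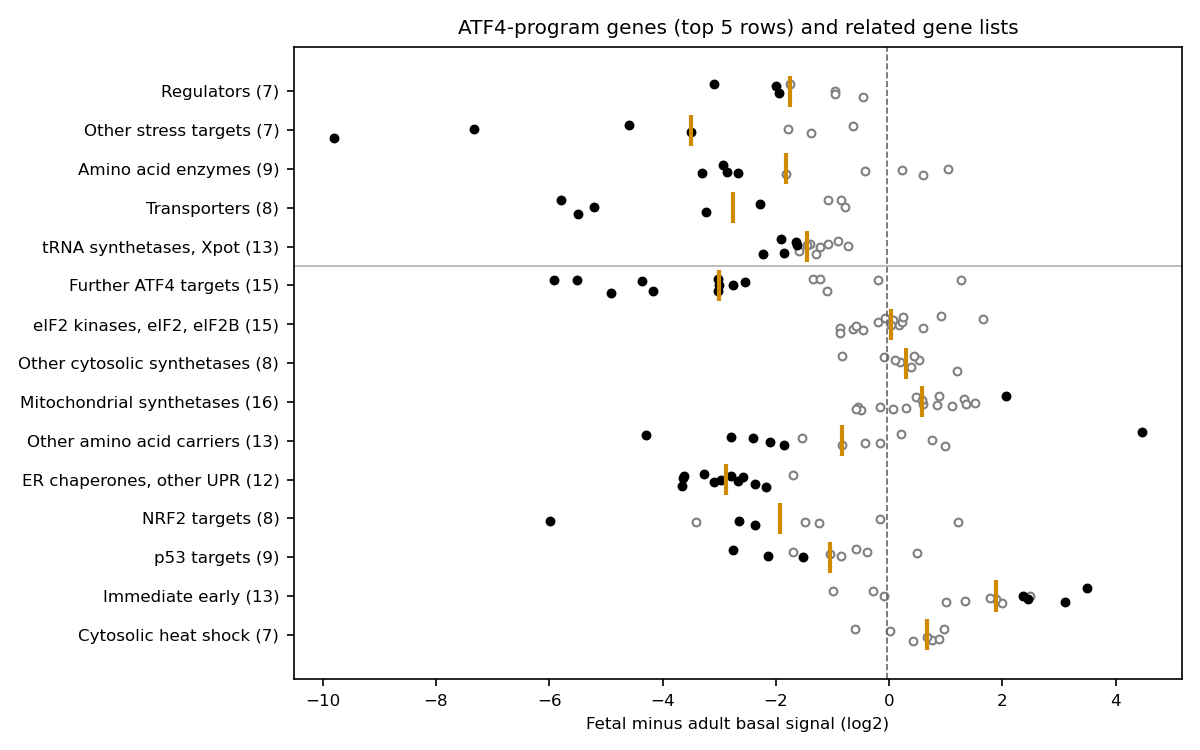
Fetal minus adult basal log2 signal of single genes (points, filled where called with Holm adjustment) in the 5 roles of the ATF4 program (above the grey line) and in 10 related lists, with the number of genes tested in parentheses, the median of each list (orange bars) and the median of all genes (dashed line, -0.04). Points are spread vertically only so that they can be seen. The lists of further ATF4 targets and of endoplasmic reticulum chaperones lie mostly below 0, the eIF2 and other synthetase lists lie around or above 0, and immediate early genes lie mostly above 0.

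Markers of cell identity followed the labels, in part. Of 10 basal markers, 8 were called higher in adult basal cells, with a summed linear signal of 1228840, 1191010 and 1193170 in adult basal cells and 94882, 86387 and 76456 in fetal cells. Acta2 was the brightest of them, Myh11 was the lowest at -8.63 (SE 0.18), and the 2 tested probes of Trp63, the basal master regulator, disagreed. The brighter had a difference of -0.08 (SE 0.10) and was not called, and the dimmer, which matched another of its transcripts, was called higher in adult basal cells at -3.06 (SE 0.10, Holm-adjusted p = 0.00019). Of 10 luminal markers, 5 were called higher in fetal cells and 0 in adult basal cells by Holm (2 by Benjamini-Hochberg and 3 at an unadjusted p of at most 0.05), from -3.58 (SE 0.35) for Esr1, well above background on 1 of 3 fetal arrays, to 7.55 (SE 0.16) for Elf5, with a summed signal of 119586, 110828 and 111129 in adult basal cells and 238239, 244921 and 181305 in fetal cells and Krt18 the brightest. No marker of either list was below background on all arrays of a group.

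Markers of other cell types were also measured. Of 7 fibroblast markers tested, 1, Dcn (-3.78, SE 0.18), was called higher in adult basal cells by Holm, 3 were by Benjamini-Hochberg and 6 had an unadjusted p of at most 0.05, with all adult basal arrays above the fetal arrays in 6 of the 7, and 0 were higher in fetal cells by any of these, with Col1a1 the highest at -0.01 (SE 0.25), a summed signal of 17488, 21422 and 27975 in adult basal cells and 6235, 6417 and 7876 in fetal cells, Col1a2 the brightest, and Dpt not well above background in fetal cells. None of 7 leukocyte markers was called by Holm, while limma with Benjamini-Hochberg adjustment called 2 higher in adult basal cells, the number with an unadjusted p of at most 0.05, from -2.79 (SE 0.22) for Cd74 to 0.24 (SE 0.25) for Itgam, the brightest, with a summed signal of 25672, 34799 and 28789 in adult basal cells and 34816, 29134 and 26620 in fetal cells. None of 7 endothelial markers was called by Holm and 5 were called higher in adult basal cells by Benjamini-Hochberg, the number with an unadjusted p of at most 0.05, from -3.77 (SE 0.47) for Esam, well above background on 1 of 3 fetal arrays, to -0.04 (SE 0.13) for Kdr, the brightest, with a summed signal of 13378, 14265 and 11951 in adult basal cells and 12396, 10931 and 12784 in fetal cells and Tek not well above background in fetal cells. With 1 array left out in turn, the group means differed by 0.09 to 0.49 for Itgam, by -0.21 to 0.28 for Col1a1 and by -0.14 to 0.03 for Kdr.

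Of 4 salivary genes tested, 2 were called higher in fetal cells, from -1.19 (SE 0.19) for Amy1 to 8.60 (SE 0.26) for Dcpp1, the brightest and well above background on 2 of 3 adult basal arrays, with a summed signal of 178, 392 and 187 in adult basal cells and 5501, 6065 and 5991 in fetal cells and Smr3a not well above background in adult basal cells. Of 4 epidermal genes tested, 1, Krt10, was called higher in fetal cells, with Krt1 the highest at 1.95 (SE 0.18), a summed signal of 769, 813 and 773 in adult basal cells and 2149, 1773 and 1769 in fetal cells, Krt10 the brightest, and Ivl not well above background in adult basal cells. Among 6 adipocyte genes none was called by Holm or by Benjamini-Hochberg and 1 in each direction had an unadjusted p of at most 0.05. Fabp4, the brightest, had the lowest difference, -1.21 (SE 0.49), or -1.83 between the group means without fetal replicate 3, Adipoq was not well above background in adult basal cells, and the summed signal was 2217, 2075 and 2470 in adult basal cells and 1305, 1144 and 2874 in fetal cells. The only erythroid gene tested, Hba-a1, was not called, and its difference of 0.47 (SE 0.39) lay between 0.24 and 0.87 with 1 array left out in turn. The summed signal of the ATF4 program was 1302810, 1483270 and 1503260 in adult basal cells and 436262, 429557 and 433413 in fetal cells. Such sums can be compared between arrays but not between lists, since each list has different probes. The part of other cell types in the differences of the program was not tested.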

How the data were processed

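The authors scanned 6 mouse gene expression arrays (Agilent, 1 color) and extracted them with Feature Extraction 11.0.1.1, and the deposited spot intensities are linear, background-subtracted within each array and not normalized between arrays. The authors also deposited log2 values, quantile normalized in GeneSpring, which were used as an alternative. The labels name the Low Input Quick Amp kit for the labelling of RNA and the study's methods its whole-transcript version. The 45 genes and all other lists were chosen with earlier results of these data known, and no list was tested as a set.

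Control and outlier spots (104 to 326 on an array) were left out, repeated spots of 1 probe were averaged on the log2 scale, and quantile normalization was applied across arrays. The scanner tables hold no gene names, so accessions were matched without version numbers to RefSeq genes (GRCm38.p6), which named 27235 of 55681 probes (48.9%), and gene names are those of the lists. Probes in the lowest of 3 k-means clusters in both populations (mean log2 signal below 5.95) were removed, which left 20448 probes of 15734 genes. The study used a filter of this kind with clusters formed in each dataset. Here the means of both populations were clustered together, on probes matched to a gene, so the filters differ. The fit used lmFit and eBayes (limma 3.58.1, R 4.3.3) with group as its only term. Limma p-values were adjusted over all probes tested and a gene was read on the probe with the highest mean over 6 arrays. Each gene of the list was accounted for, with values on each array for Atf4, Ddit3, Trib3, Asns, the called genes and the uncalled gene of each role with the largest difference, and from other lists the counts and the genes at both ends. Psat1, Cbs and Phgdh were added to these after their values were seen. A probe that no array of a group measured well above background was given as a bound or named without a difference. For Fgf21 the fitted difference was printed beside its bound. The fit was tested on simulated data.

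The share of probes well above background ran from 76.4% to 83.3% over the arrays, no spot was saturated, and the number of arrays limits the precision. Same-numbered fetal and adult replicates did not deviate together (correlations of -0.03, 0.09 and 0.05), so they were not paired. Alternatives were 75th percentile scaling, the deposited log2 values, normexp (offset 50, on the median spot intensity), dropping the low-signal filter or replacing it with the background flags, adding unmatched probes, Benjamini-Hochberg adjustment, a trend and robust eBayes, adding 16 before taking log2, removing each array in turn, replicate or slide as a block, values within a slide, and averaging the probes of a gene. Promoter windows were read from RefSeq (GRCm38.p6). The array design names another assembly, so no probe coordinates are given. Some results are not reported here. Python 3.11.15, pandas 2.3.3, numpy 2.4.6 and matplotlib 3.10.9 were used for tables and plots.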

Additional observations from a re-analysis of the deposited data

How the results depend on the processing

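Over 18 alternatives, the 44 genes gave 791 differences, of which 0 changed sign, 687 stayed on the same side of the call, 70 lost it and 34 gained it. Many of these differences could not change sign. Another adjustment or probe filter, a trend and robust eBayes and replicate number as a block leave a difference as it is. So does averaging the probes of a gene that has a single probe. The 10 genes that kept their Holm call under every alternative run were Ddit3, Chac1, Gdf15, Herpud1, Mthfd2, Aldh18a1, Slc7a11, Slc7a3, Slc3a2 and Slc6a9, of which Slc7a11 was set mostly against background. Of the other 11 called genes, Fgf21 lost the call only with a trend and robust eBayes, and the rest lost it when single arrays were left out. Trib3, Slc7a1, Aars, Sars and Wars also lost it with slide as a block and without the low-signal filter, where Cth and Cars did too. Further losses came with all non-control probes (Trib3, Cth and Wars), with replicate number as a block (Trib3, Ppp1r15a, Cth, Slc7a1, Aars, Sars, Wars and Nars), and for Wars with 75th percentile scaling, the background flags and the mean of its probes.

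Benjamini-Hochberg adjustment raised the number of probes called from 2270 to 6133, the genes of the program higher in adult basal cells from 21 to 32 and those higher in fetal cells from 0 to 1, which was also 1 with a trend and robust eBayes. Without the low-signal filter 1181 probes and 14 genes of the program were called, and with slide as a block 1541 and 16. With each array left out, between 948 and 1949 probes and between 11 and 19 genes of the program higher in adult basal cells were called. With replicate number as a block, 1302 probes and 13 genes of the program were called. The labels name no source shared by replicates of the same number, and whether they shared one is not known.

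The median difference of the program was -1.63 with normexp, -1.77 with the mean of a gene's probes, -1.76 within the first slide, and between -1.75 and -1.64 with each array left out. That of the transporters was -2.68 with normexp, -2.56 and -2.97 within the first and the second slide, and between -2.86 and -2.69 with each array left out, and that of the other stress targets was -3.83 within the second slide. The causes of these shifts were not tested. Fgf21 and Slc7a11 lay near background in fetal cells, so the size of their differences is the least certain, and Yars fell below the low-signal filter with normexp.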
